A study of Mus musculus with 12 samples.

Results

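The genes described here are 36 markers of macrophages and dendritic cells, the main phagocytes and antigen-presenting cells of the gut wall. They were taken by gene name from a table of 44205 genes measured in mouse ileum, and all 36 were found. Of these, 29 reached 0.5 RPKM in at least 3 libraries and were among the 17662 genes tested. The remaining 7 genes (Cd163, Clec10a, Clec9a, Flt3, Siglec1, Xcr1 and Zbtb46) were too low to be tested, and their levels are given as values. RPKM is the number of reads in a gene scaled to the length of its transcripts and to the size of the library.

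The study sequenced ileum RNA of 12 individual C57BL/6 mice, 3 per diet and 4 diets in all, to compare a diet high in fat, a sugar drink and both together. Samples are separate mice, so p-values measure the spread between mice. All mice were 16 weeks old and had been on their diet for 10 weeks from the age of 6 weeks. The NF group ate normal-fat food and drank plain water (the normal diet, ND), and the NF_Sugar group ate the same food with a 23% (w/v) sugar drink. The HF group ate food with 60% of its energy as fat and drank plain water, and the HF_Sugar group received this food with the sugar drink (the Western diet, WD). Xist was at most 0.051 RPKM and Ddx3y was 2.06 to 3.31 RPKM across the 12 libraries, while the labels give no sex. Whole ileum was used, so fewer cells of a type and less RNA per cell cannot be told apart in any value below.

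Macrophages of the gut wall derive mainly from blood monocytes, depend on the growth factor receptor encoded by Csf1r, and clear dead cells and microbes by phagocytosis. Conventional dendritic cells depend on Flt3 and carry antigen to lymph nodes, and one of their subsets, marked by Xcr1 and Clec9a, requires Irf8 and Batf3. The markers differ in how narrowly they are expressed. Adgre1 (F4/80) and Csf1r are among the narrower macrophage markers, although not exclusive to these cells. Lyz2, Ctss, Lgmn and Mertk can also be made by other cells, and Irf8, Spi1 and Laptm5 are also active in B cells.

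The libraries held 15.3 M to 39 M reads, as recovered from the steps between low RPKM values. Along the leading principal component, with 39.5% of the variance, 1 library of each group lay apart from the other 8, namely replicate 2 of NF, HF and HF_Sugar and replicate 1 of NF_Sugar. The members' medians and counts are given with and without these 4 libraries. Most members (29 of 36) had values equal to whole reads in every library, within 0.03 reads plus 2e-05 of the count and at most 0.1 reads. In 4 further members, Csf1r, Itgam, Ncf1 and Clec9a, no common step was found, and each shares exon sequence with another annotated gene. The remaining 3, Csf2rb, Irf8 and Cd86, had whole reads in the 9 libraries of the other groups and fractions of a read only in HF_Sugar. They were 10.3% of the tested members, beside 0.65% of all genes tested. Fractions only in NF were found in 1.35% of all genes tested. In HF_Sugar the fractions of these members were 256.31 reads of Csf2rb and 54.25 reads of Cd86 in replicate 1. For Irf8 they were 3103.89 and 2685.46 reads in replicates 1 and 2. How these values arose was not tested.

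Promoter sequences show what kind of control region these genes carry. RefSeq promoters (build GRCm38.p6, 250 bases before to 50 bases after the start) were matched by symbol for 25 of the 36 genes, with 29 promoters in all. The letters GAGGAA, on either strand, are the core bound by PU.1, the myeloid factor that Spi1 encodes. They were found in promoters of 13 of the 25 genes and in 14 of the 29 promoters (48.3%), against 28.3% of 32851 promoters in the whole RefSeq set. The promoters of C1qb and C1qc are shown because these neighbouring genes, transcribed in the same direction within 18.7 kb that also hold C1qa, are among the most abundant members. The match, in capitals, begins 30 bases before the start of C1qb and 193 bases before the start of C1qc, where it lies on the other strand and reads TTCCTC.
C1qb promoter, chr4:136886151-136886450, minus strand: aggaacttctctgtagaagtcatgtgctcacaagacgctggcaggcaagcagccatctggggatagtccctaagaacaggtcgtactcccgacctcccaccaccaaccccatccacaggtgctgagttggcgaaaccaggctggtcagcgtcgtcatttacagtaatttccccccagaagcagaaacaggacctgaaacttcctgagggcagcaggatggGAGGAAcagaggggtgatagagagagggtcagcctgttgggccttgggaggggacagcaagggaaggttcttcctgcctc
C1qc promoter, chr4:136892865-136893164, minus strand: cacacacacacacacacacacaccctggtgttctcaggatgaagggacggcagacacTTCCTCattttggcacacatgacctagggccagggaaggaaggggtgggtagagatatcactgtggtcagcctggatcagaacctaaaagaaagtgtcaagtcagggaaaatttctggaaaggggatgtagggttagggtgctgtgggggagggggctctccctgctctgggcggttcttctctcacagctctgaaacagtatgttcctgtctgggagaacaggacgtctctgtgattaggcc

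The Irf8 promoter is shown because Irf8 is a member that the comparisons below turn on. Its capitals mark TTCNNNGAA, the STAT-type letters of interferon-gamma response elements, which read the same on both strands. They begin 171 and 153 bases before the start. This pattern was found in 4 of the 29 promoters of the members (13.8%; Batf3, Fcgr1, Irf8 and Ncf1) and in 8.3% of all promoters. A match of letters does not show that a factor binds there.
Irf8 promoter, chr8:120736108-120736407, plus strand: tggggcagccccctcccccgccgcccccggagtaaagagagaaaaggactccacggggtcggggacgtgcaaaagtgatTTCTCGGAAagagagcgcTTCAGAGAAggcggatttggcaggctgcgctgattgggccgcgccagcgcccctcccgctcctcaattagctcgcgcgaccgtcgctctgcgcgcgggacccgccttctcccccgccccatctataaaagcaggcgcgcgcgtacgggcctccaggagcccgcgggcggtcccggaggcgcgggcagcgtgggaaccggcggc

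The levels of the 36 genes spanned from a mean of 0.108 RPKM for Siglec1 to 108 RPKM for Lyz2, with 9 genes at 10 RPKM or more, 14 from 1 to 10 RPKM and 13 below 1 RPKM. The high end was held by secreted and lysosomal products. Lyz2 (lysozyme M) ranged from 51.4 to 177 RPKM and Ctss (cathepsin S, a protease of antigen processing) from 62.1 to 130 RPKM. The C1q chains, which start the classical complement pathway, had means of 31.2 (C1qa), 30.1 (C1qb) and 14.6 RPKM (C1qc). Lgmn (legumain, a lysosomal protease) averaged 28.8 RPKM, Irf8 13.3 RPKM, Mertk (a receptor for dying cells) 12.0 RPKM and Laptm5 (a lysosomal membrane protein of blood cells) 11.7 RPKM.

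Receptors that define macrophages were much lower than these products. Csf1r averaged 3.72 RPKM, Adgre1 0.568 RPKM, Mrc1 (the mannose receptor) 0.591 RPKM and Cd163 (the haemoglobin scavenger receptor) 0.155 RPKM. Mertk exceeded Csf1r in every library, by 1.95 to 5.14 times. Dendritic cell markers other than Irf8 were low as well, with means of 0.307 (Clec9a), 0.289 (Xcr1), 0.204 (Zbtb46) and 0.189 RPKM (Flt3), while Batf3 reached 0.929 RPKM. Lyz2 shared 15.4% of its 50-base windows with Lyz1, the lysozyme of Paneth cells, which stood at 10.3 to 51.1 times the Lyz2 level, so a part of the Lyz2 reads could be from Lyz1. Markers of both cell types were thus detected, and 4 of the 6 dendritic cell markers were below the filter for testing.

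**Figure D1:**
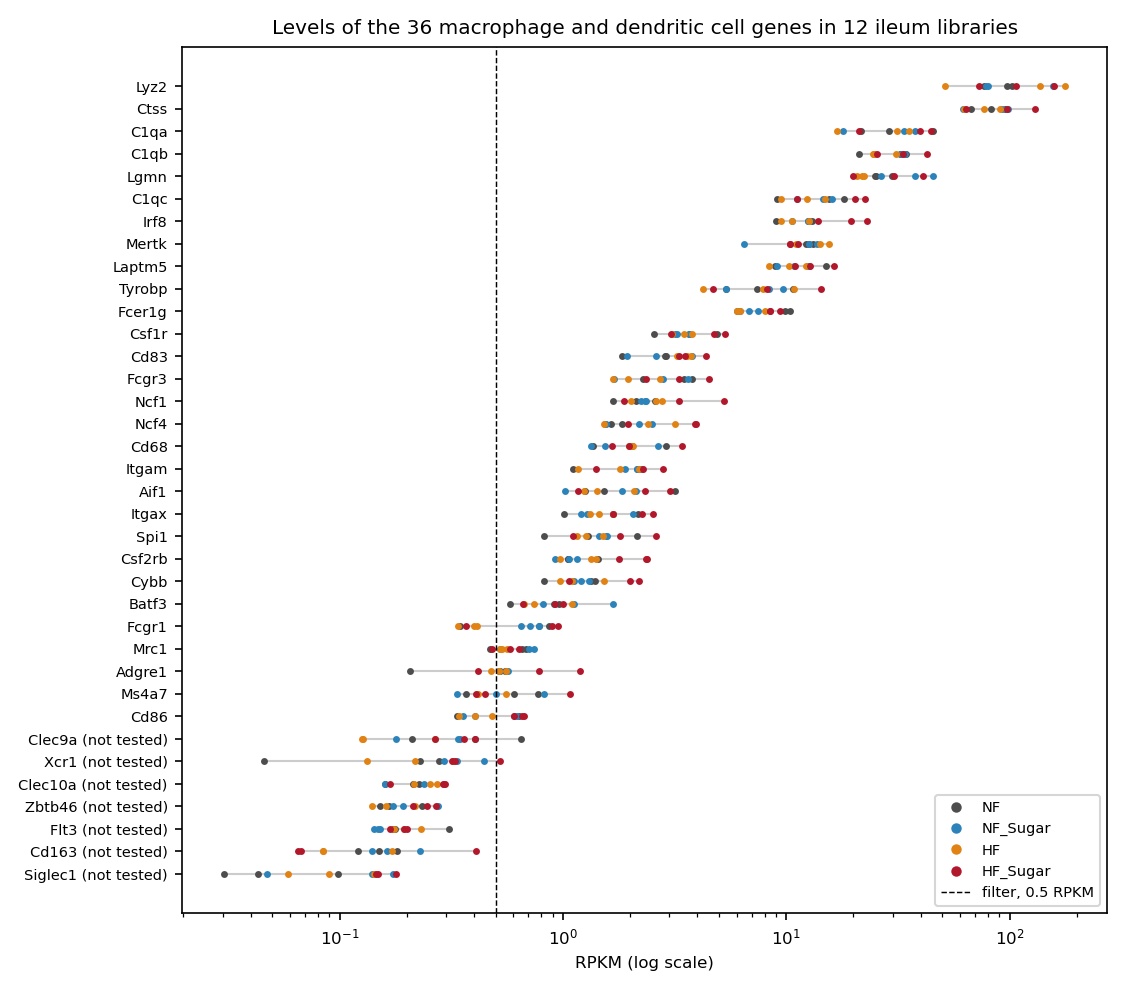
RPKM on a log axis (horizontal) of the 36 genes (vertical, ordered by mean level) in 12 ileum libraries, with 1 point per library coloured by diet group, a grey line from lowest to highest, and a dashed line at the filter of 0.5 RPKM. The genes run from Lyz2 and Ctss near 100 RPKM to Siglec1 near 0.1 RPKM, and the 7 genes that were not tested lie at the bottom.

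WD was compared with ND first, to ask how the full diet differs from the normal one. None of the 29 tested members passed an adjusted p of 0.05 in HF_Sugar against NF, and neither did any of the 17662 genes (0%, limma with Benjamini-Hochberg adjustment, smallest adjusted p of a member 0.99). The fitted difference was above 0 in 26 of the 29 members and below 0 in 3, against 46.2% of all genes above 0. The median of the members was 0.12 on the log2(RPKM + 1) scale, beside -0.02 over all genes. At an unadjusted p under 0.05, 750 genes differed, 374 of them higher in HF_Sugar (2.12% of those tested), and 3 members were among these, Csf2rb, Irf8 and Ncf4.

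Csf2rb encodes the beta chain shared by the receptors for GM-CSF, interleukin-3 and interleukin-5, and lies at chr15:78325752-78353847 (GRCm38, plus strand). Its level was 1.05, 1.05 and 1.43 RPKM in the NF mice, 1.16, 0.925 and 1.06 RPKM in the NF_Sugar mice, and 0.966, 1.40 and 1.33 RPKM in the HF mice. In the HF_Sugar mice it was 2.39, 1.78 and 2.36 RPKM. Thus the 3 HF_Sugar libraries lay above all 9 others, and their mean was 1.85 times that of NF. The log2 difference from NF was 0.51 ± 0.11 (SE, n = 3 mice per group, adjusted p = 0.99 by limma). Csf2rb shared 12.3% of its 50-base windows with Csf2rb2, its near-identical neighbour, whose difference from NF was 0.10 ± 0.13 (SE). The HF_Sugar replicate 1 value of Csf2rb is 1 of those that were no whole number of reads.

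Irf8 encodes a transcription factor of dendritic cells, monocytes and B cells, and lies at chr8:120736358-120756694 (plus strand). It stood at 8.98, 13 and 12.5 RPKM in NF, 10.6, 12.5 and 12.7 RPKM in NF_Sugar and 9.48, 12.7 and 10.6 RPKM in HF. In HF_Sugar it stood at 19.5, 13.9 and 22.9 RPKM. All 3 HF_Sugar libraries exceeded the 9 others, replicate 2 by the smallest margin, and after scaling that replicate overlapped the NF group. The log2 difference from NF was 0.59 ± 0.19 (SE, adjusted p = 0.99 by limma), with 1.63 times the NF mean. Csf2rb and Irf8 were the only members whose HF_Sugar values lay above all 9 other libraries, a pattern that 94 genes showed (0.532% of those tested).

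Ncf4 encodes the p40 subunit of the phagocyte NADPH oxidase, which makes superoxide against engulfed microbes, and lies 63.2 kb before Csf2rb on chromosome 15. Its level was 1.55, 1.64 and 1.84 RPKM in NF, 2.5, 2.18 and 1.56 RPKM in NF_Sugar, 2.40, 1.53 and 3.18 RPKM in HF, and 3.93, 1.95 and 3.89 RPKM in HF_Sugar. HF_Sugar lay above NF in every library and overlapped the other groups through replicate 2. The log2 difference from NF was 0.58 ± 0.23 (SE, adjusted p = 0.99 by limma). The other oxidase members had smaller differences. Ncf1 (p47) gave 0.41 ± 0.25 and Cybb (the catalytic gp91) gave 0.28 ± 0.17, with HF_Sugar replicate 1 of Ncf1 at 5.27 RPKM against 1.68 to 3.32 RPKM in the 11 others.

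**Figure D2:**
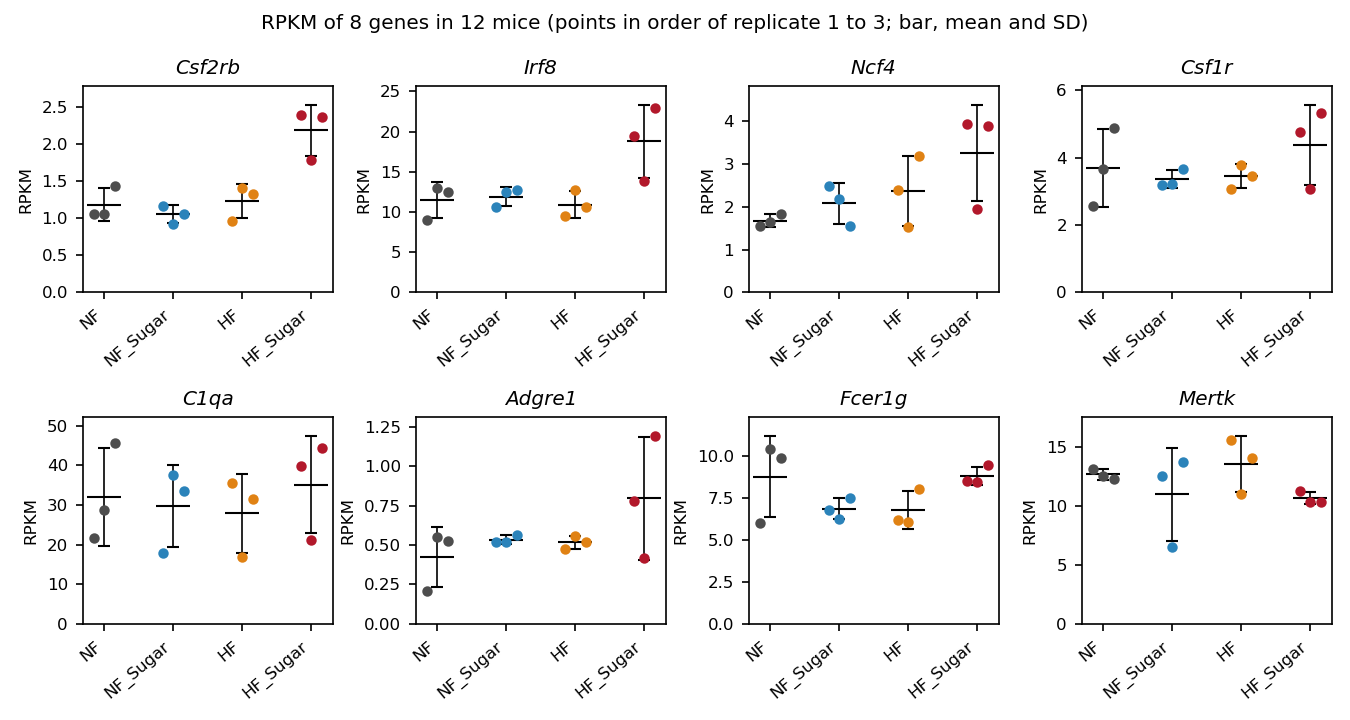
RPKM (vertical axes, from 0) of 8 genes in each mouse by diet group (horizontal axes), with the group mean and SD (n = 3) as black bars. Csf2rb and Irf8 lie above all other libraries in the 3 HF_Sugar mice, while Csf1r, C1qa, Adgre1 and Mertk overlap between HF_Sugar and at least 1 other group.

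Groups that did not overlap in deposited RPKM were counted as well. HF_Sugar lay wholly above NF in 4 of the 29 tested members (Cd83, Csf2rb, Irf8 and Ncf4; background 7.21% of genes) and wholly below in 1, Mertk (background 2.97%). After scaling between libraries, 2 members remained above (Csf2rb and Ncf4; 5.54% of genes after scaling) and none below (4.86%). Cd83, a surface protein of mature dendritic cells and activated B cells, stood at 1.84, 2.90 and 2.85 RPKM in NF and 4.35, 3.31 and 3.53 RPKM in HF_Sugar, with 3.79, 2.6 and 1.94 RPKM in NF_Sugar and 3.74, 3.25 and 3.60 RPKM in HF. Mertk stood at 13.2, 12.6 and 12.3 RPKM in NF and 11.3, 10.4 and 10.4 RPKM in HF_Sugar. Its log2 difference was -0.29 ± 0.25 (SE, adjusted p = 0.99 by limma), the lowest of the members.

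The macrophage genes Adgre1, Csf1r and Mrc1 overlapped between WD and ND. Adgre1 stood at 0.206, 0.549 and 0.523 RPKM in NF, 0.518, 0.519 and 0.565 RPKM in NF_Sugar, 0.477, 0.556 and 0.518 RPKM in HF and 0.780, 0.416 and 1.19 RPKM in HF_Sugar. The highest and the second highest values were both HF_Sugar, yet replicate 2 was below all but the lowest NF library. Csf1r stood at 2.56, 3.65 and 4.89 RPKM in NF, 3.18, 3.23 and 3.67 RPKM in NF_Sugar, 3.08, 3.79 and 3.47 RPKM in HF and 4.75, 3.06 and 5.34 RPKM in HF_Sugar. The log2 differences from NF were 0.29 ± 0.14 for Adgre1 and 0.15 ± 0.16 for Csf1r (SE). Their HF_Sugar means were 1.87 and 1.18 times the NF means. Mrc1, which varied least of the 36 genes, stood at 0.471, 0.656 and 0.683 RPKM in NF, 0.521, 0.707 and 0.740 RPKM in NF_Sugar, 0.532, 0.523 and 0.559 RPKM in HF and 0.578, 0.481 and 0.636 RPKM in HF_Sugar.

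Other macrophage identity genes spread widely within groups. Cd68, a lysosomal glycoprotein, had group means of 2.10 ± 0.772 (NF), 1.84 ± 0.712 (NF_Sugar), 2.01 ± 0.0474 (HF) and 2.35 ± 0.940 RPKM (HF_Sugar; SD, n = 3). Aif1 (Iba1, an actin-binding protein) ranged from 1.02 to 3.16 RPKM and Ms4a7 (a membrane protein of macrophages) from 0.334 to 1.08 RPKM, each with the highest and the lowest library in different groups. Cd163 stood at 0.150, 0.180 and 0.121 RPKM in NF, 0.139, 0.163 and 0.228 RPKM in NF_Sugar and 0.0843, 0.0847 and 0.172 RPKM in HF. In HF_Sugar it was 0.0650, 0.408 and 0.0675 RPKM, that is 8, 61 and 6 reads, so that this group held both its highest and its lowest libraries. Siglec1 (CD169) was 0.0431, 0.0305 and 0.0986 RPKM in NF and 0.149, 0.179 and 0.146 RPKM in HF_Sugar, from 6 to 35 reads over the 12 libraries. Its HF_Sugar values lay above those of NF (background 7.21% of tested genes). Clec10a, a lectin, lay between 0.159 and 0.297 RPKM in all groups. These last 3 genes were too low to be tested.

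The groups of the 3 complement C1q genes overlapped in WD and ND. Over the 12 libraries the Pearson r was 0.65 for C1qa with C1qb, 0.84 for C1qa with C1qc and 0.89 for C1qb with C1qc. C1qa stood at 21.6, 28.8 and 45.6 RPKM in NF, 17.9, 37.6 and 33.5 RPKM in NF_Sugar, 35.6, 16.8 and 31.4 RPKM in HF and 39.7, 21.2 and 44.3 RPKM in HF_Sugar. The ratio of C1qa to C1qc ranged from 1.60 to 2.88 and that of C1qb to C1qc from 1.64 to 2.59. In HF_Sugar against NF the log2 differences were 0.06 ± 0.36 (C1qa), 0.14 ± 0.21 (C1qb) and 0.25 ± 0.27 (C1qc; SE), each within its error.

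Fc receptors, which couple antibody-coated targets to phagocytosis, and the signal adaptors Fcer1g and Tyrobp differed between WD and ND by less than their errors. The log2 differences were 0.03 ± 0.15 for Fcgr1 (the high-affinity IgG receptor) and 0.00 ± 0.22 for Fcgr3. They were -0.02 ± 0.18 for Fcer1g (the common gamma chain of these receptors) and 0.06 ± 0.36 for Tyrobp (DAP12, SE). The integrin chains Itgam (CD11b) and Itgax (CD11c) gave 0.12 ± 0.20 and 0.24 ± 0.16. Itgam shares 66.3% of its windows with the overlapping gene model Gm49368, so its level is uncertain. The lysosomal members Ctss, Lgmn and Laptm5 gave 0.13 ± 0.26, 0.07 ± 0.28 and 0.06 ± 0.22, and the costimulatory ligand Cd86 gave 0.09 ± 0.10. Spi1 gave 0.21 ± 0.18, with 0.819, 1.29 and 2.14 RPKM in NF and 1.81, 1.11 and 2.62 RPKM in HF_Sugar.

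Dendritic cell markers other than Irf8 rested on few reads. Xcr1, the receptor of cross-presenting dendritic cells, stood at 0.0461, 0.229 and 0.279 RPKM in NF, 0.293, 0.334 and 0.441 RPKM in NF_Sugar, 0.132, 0.218 and 0.322 RPKM in HF and 0.319, 0.328 and 0.524 RPKM in HF_Sugar. The lowest value came from 8 reads in NF replicate 1, the deepest library, and all others from 14 to 40 reads. The NF values of Xcr1 lay below those of both sugar groups (background 3.22% of tested genes for NF_Sugar above NF and 7.21% for HF_Sugar above NF). Clec9a, a receptor for dead cells on the same subset, stood at 0.210, 0.405 and 0.652 RPKM in NF, 0.179, 0.346 and 0.338 RPKM in NF_Sugar, 0.127, 0.126 and 0.268 RPKM in HF and 0.267, 0.362 and 0.403 RPKM in HF_Sugar, and shares exon sequence with Clec1b. Xcr1 and Clec9a therefore had different orders of the groups, NF being lowest in mean for Xcr1 (0.185 RPKM) and highest for Clec9a (0.422 RPKM).

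The remaining dendritic cell genes overlapped between HF_Sugar and NF. Flt3, the receptor for their growth factor, stood at 0.174, 0.177 and 0.308 RPKM in NF and 0.143, 0.152 and 0.149 RPKM in NF_Sugar. It stood at 0.176, 0.195 and 0.232 RPKM in HF and 0.201, 0.195 and 0.169 RPKM in HF_Sugar. Its NF_Sugar values lay below those of NF (background 2.64% of tested genes). Zbtb46, a factor of conventional dendritic cells, stood at 0.166, 0.235 and 0.151 RPKM in NF, 0.173, 0.192 and 0.277 RPKM in NF_Sugar, 0.162, 0.217 and 0.140 RPKM in HF and 0.214, 0.270 and 0.245 RPKM in HF_Sugar. Batf3, a partner of Irf8 in the cross-presenting subset, stood at 0.578, 0.910 and 0.960 RPKM in NF, 0.816, 1.12 and 1.68 RPKM in NF_Sugar, 1.1, 0.666 and 0.743 RPKM in HF and 0.917, 0.663 and 1 RPKM in HF_Sugar. Irf8 was the only dendritic cell marker of the 6 with all HF_Sugar values above all others, and 4 of the 6 could not be tested.

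The effect of the sugar drink on high-fat food was read from HF_Sugar against HF. Here 27 of the 29 members had a difference above 0, with a median of 0.29 beside a median of 0.00 and 49.6% above 0 over all genes. No member passed the adjusted threshold (smallest adjusted limma p 0.765), and Il1b was the 1 gene that did (0.00566% of genes). With the replicate number as a block, 0 genes were called. Il1b, too, held fractions of a read in HF_Sugar alone, with 123.92, 141.46 and 92.05 reads. An unadjusted p under 0.05 was reached by Csf2rb (0.50 ± 0.11, adjusted p = 0.765 by limma) and Irf8 (0.70 ± 0.19, adjusted p = 1 by limma), where 1.91% of all genes were higher at this level. HF_Sugar lay wholly above HF in Cd86, Csf2rb, Fcer1g and Irf8 (background 4.69%).

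Several further members had low values in HF. Fcgr3, a low-affinity IgG receptor, stood at 1.95, 1.68 and 2.71 RPKM in HF and 3.30, 2.36 and 4.49 RPKM in HF_Sugar, while NF mice held 2.28, 3.5 and 3.79 RPKM and NF_Sugar mice 1.70, 2.80 and 3.62 RPKM. Its log2 difference was 0.47 ± 0.22 (SE, adjusted p = 1 by limma). Fcer1g stood at 6.18, 6.03 and 8.04 RPKM in HF, 8.48, 8.44 and 9.42 RPKM in HF_Sugar, 5.99, 10.4 and 9.86 RPKM in NF and 6.78, 6.23 and 7.5 RPKM in NF_Sugar. Fcgr1 stood at 0.339, 0.411 and 0.401 RPKM in HF, the lowest of the 4 group means, and at 0.892, 0.367 and 0.949 RPKM in HF_Sugar. It stood at 0.347, 0.870 and 0.784 RPKM in NF and 0.650, 0.784 and 0.709 RPKM in NF_Sugar. Cd86 stood at 0.343, 0.480 and 0.405 RPKM in HF and 0.658, 0.668 and 0.604 RPKM in HF_Sugar. Its values of 0.336, 0.606 and 0.634 RPKM in NF and 0.356, 0.406 and 0.626 RPKM in NF_Sugar overlapped those in HF.

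HF against NF gave no call (0% of genes, smallest adjusted limma p of a member 1). Here 7 members were above 0 and 22 below, with a median of -0.10 against -0.01 over all genes, of which 47.0% were above 0. All 4 Fc receptor and adaptor genes were below 0, Fcgr3 by -0.47 ± 0.22, Fcer1g by -0.36 ± 0.18, Fcgr1 by -0.27 ± 0.15 and Tyrobp by -0.12 ± 0.36 (SE). The 3 C1q chains and the 3 lysosomal genes were also below 0. The count above 0 was 12 without NF replicate 2 (median -0.03), 13 without NF replicate 3 (median -0.05) and 14 without the 4 libraries that stood apart (median -0.01), while the median was -0.21 without NF replicate 1. Cd83 lay wholly above NF (background 5.37%) and Lgmn, at 21.9, 22.2 and 20.8 against 29.6, 25.0 and 25.2 RPKM, wholly below (background 2.97%), and both groups overlapped after scaling. The comparisons of HF_Sugar and HF with NF share the NF mice, and HF_Sugar against HF shares the HF mice, so their values are not independent.

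**Figure D3:**
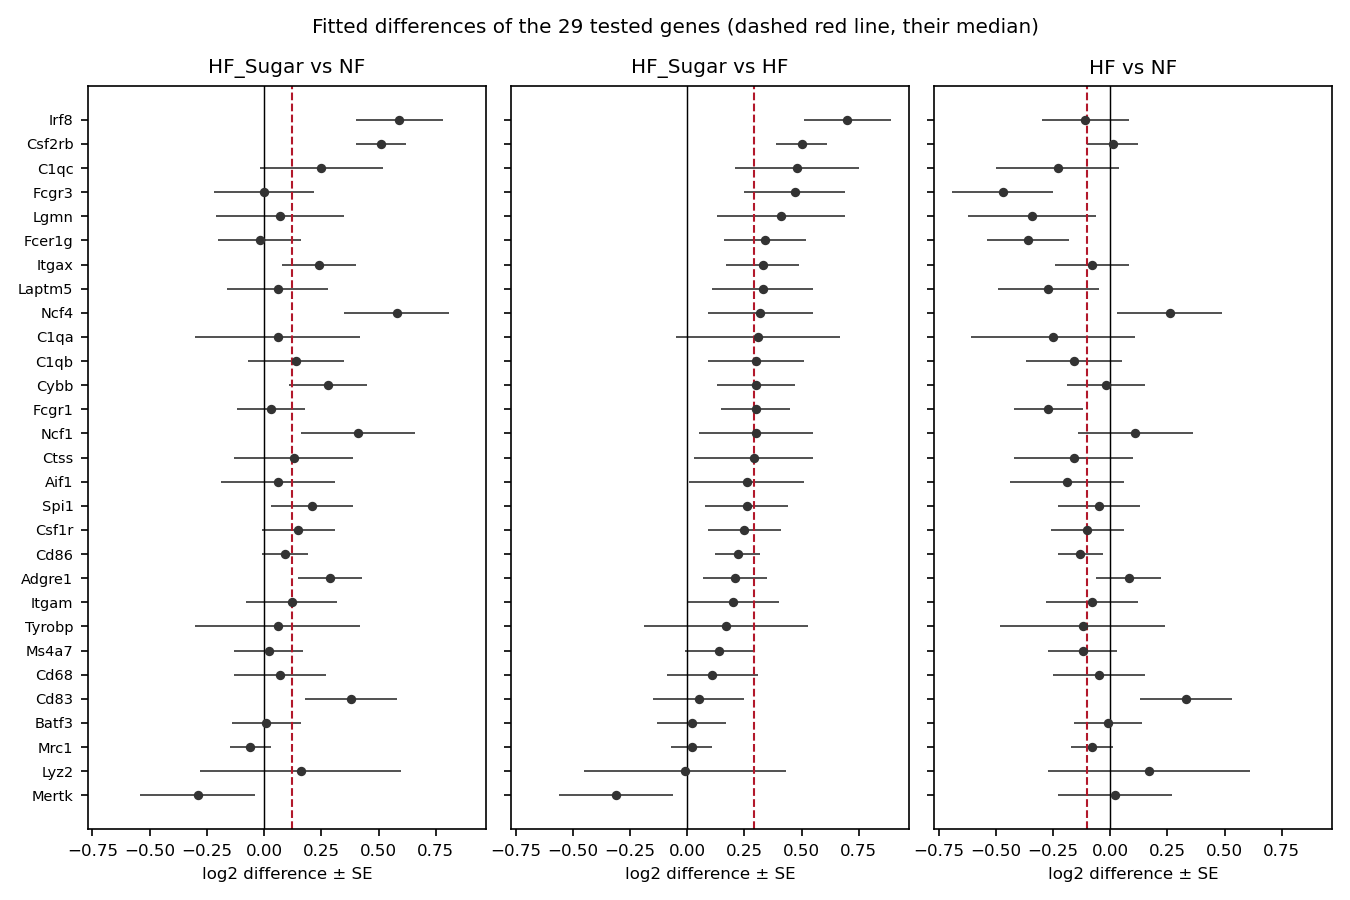
Log2 difference with SE (horizontal axes, log2(RPKM + 1) scale) of the 29 tested genes (vertical, ordered by HF_Sugar against HF) in 3 comparisons, each with the members' median as a dashed red line. The medians are 0.12, 0.29 and -0.10, and Csf2rb and Irf8 lie well above 0 in the first 2 panels and near 0 in the HF against NF panel.

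The sugar drink on normal-fat food was read from NF_Sugar against NF. Here 15 members were above 0 and 14 below, against 45.4% of all genes above 0. The members' median was 0.00, beside -0.02 over all genes, and none was called (0% of genes). Without NF replicate 1 the count above 0 was 6 (median -0.09), and without the 4 libraries that stood apart it was 22 (median 0.12). The smallest p-values belonged to Fcer1g (-0.31 ± 0.18), Batf3 (0.25 ± 0.15) and Lgmn (0.39 ± 0.28, adjusted p = 1 by limma for each). Lgmn stood at 26.6, 45.6 and 37.9 RPKM in NF_Sugar and at 40.8, 30.4 and 19.9 RPKM in HF_Sugar.

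High fat under the sugar drink, HF_Sugar against NF_Sugar, had 23 members above 0 and 6 below, against 50.1% of all genes above 0. The members' median was 0.20, beside 0.00 over all genes. The median was 0.12 without NF_Sugar replicate 1, 0.08 without HF_Sugar replicate 1, 0.09 without replicate 3, 0.34 without replicate 2 and 0.23 without the 4 libraries that stood apart, with 19 to 26 members above 0. Csf2rb had its largest difference here, 0.60 ± 0.11 (SE, adjusted p = 0.532 by limma), the smallest adjusted p of any member in any comparison. Irf8 differed by 0.55 ± 0.19 (SE, adjusted p = 1 by limma), and these were the 2 members with an unadjusted p under 0.05, where 1.03% of genes were higher. Itgax gave 0.31 ± 0.16 (SE, adjusted p = 1 by limma), with 1.28, 1.21 and 2.05 RPKM in NF_Sugar and 2.25, 1.67 and 2.52 RPKM in HF_Sugar. It stood at 1.01, 1.68 and 2.16 RPKM in NF and 1.32, 1.45 and 1.68 RPKM in HF. HF_Sugar lay wholly above NF_Sugar in 3 members, Csf2rb, Fcer1g and Irf8 (background 4.29%). Il1b was again the 1 gene called (0.00566%), and 0 genes were called under every alternative except without HF replicate 1.

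Whether fat and sugar acted together was tested by the interaction term, which no gene passed (0%). The term was above 0 in 24 of the 29 members, against 51.8% of all genes. The members' median was 0.25, beside 0.01 over all genes. The median was 0.14 without NF replicate 2, 0.41 without HF_Sugar replicate 2 and 0.26 without the 4 libraries that stood apart. It reached an unadjusted p under 0.05 in 4 members, where 1.43% of all genes were higher. They were Csf2rb (0.59 ± 0.16), Fcer1g (0.65 ± 0.25), Irf8 (0.67 ± 0.26) and Fcgr3 (0.69 ± 0.31), with an adjusted limma p of 1 for each. Averaged over the drinks, fat gave no call (0%) and a members' median of 0.01, beside -0.01 over all genes. It had 16 members above 0, against 47.5% of all genes. The members' median and count were 0.12 and 23 without HF_Sugar replicate 2, and 0.16 and 24 without the 4 libraries that stood apart. Without NF replicate 1 the median was -0.05. Averaged over the foods, sugar gave no call (0%) and a members' median of 0.13, beside -0.01 over all genes. It had 27 members above 0, against 46.8% of all genes. The members' median was 0.06 without NF replicate 1 and 0.23 both without HF_Sugar replicate 2 and without the 4 libraries. For fat the smallest p-values were those of Csf2rb (0.30 ± 0.08), followed by Cd83 (0.32 ± 0.14) and Ncf4 (0.34 ± 0.16), each with an adjusted limma p of 1. For sugar they were those of Irf8 (0.37 ± 0.13), Csf2rb (0.20 ± 0.08) and Lgmn (0.40 ± 0.20), each with an adjusted limma p of 0.999.

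Single mice weighed heavily in these medians. Of the 29 tested members, 25 were above their own mean over all libraries in HF_Sugar replicate 1 and 26 in replicate 3, but 7 in replicate 2, which is among the libraries that stood apart. In NF the numbers were 4, 23 and 13, in NF_Sugar 9, 14 and 17, and in HF 10, 5 and 12. These counts are of scaled values. In deposited RPKM, NF replicate 1 held the lowest value of 17 of all 36 genes, and HF_Sugar replicate 3 the highest of 16. Those lowest in NF replicate 1 included Adgre1, Csf1r, C1qb, C1qc, Itgam, Itgax, Spi1, Xcr1 and Irf8. After scaling, the lowest library was HF replicate 1 for Irf8 and Itgam and HF replicate 2 for C1qc. Mertk, Cd83, Lgmn and Ncf4 followed the others least, being on the same side as the mean of the other members in 4, 5, 6 and 6 of 12 libraries.

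**Figure D4:**
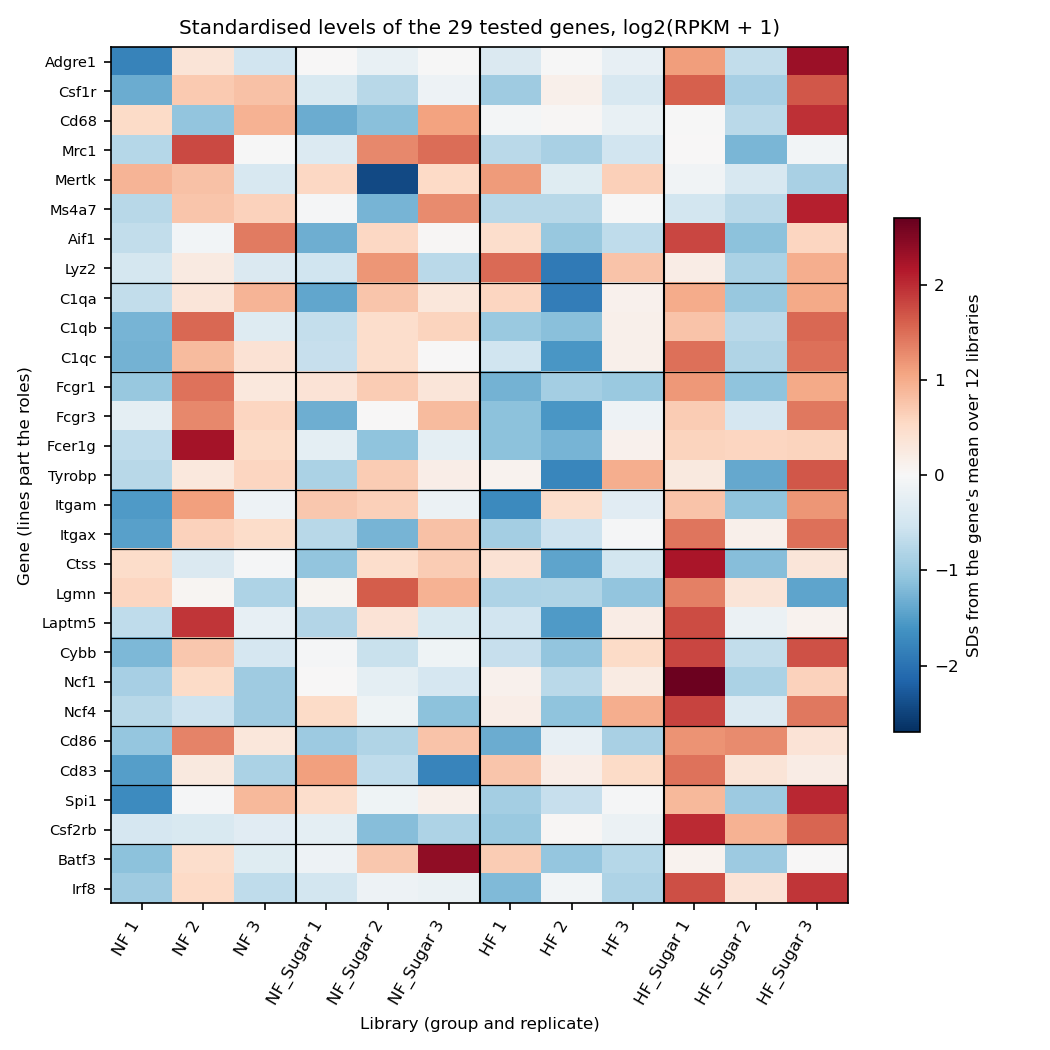
Standardised level of the 29 tested genes (rows, parted by role) in the 12 libraries (columns, parted by diet group), as SDs from each gene's mean of scaled log2(RPKM + 1). HF_Sugar replicates 1 and 3 and NF replicate 2 are mostly red, with 25, 26 and 23 genes above their mean, and NF replicate 1 and HF replicate 2 mostly blue, with 4 and 5.

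Leaving out mice moved the medians accordingly. Without HF_Sugar replicate 2 the median of HF_Sugar against NF was 0.32, and without the 4 libraries that stood apart it was 0.40, with 28 of 29 members above 0. Without NF replicate 1 it was 0.02, with 16 members above 0. It was 0.08 without HF_Sugar replicate 1 and 0.06 without replicate 3, each with 18 members above 0. HF_Sugar against HF moved less, from 0.17 without HF_Sugar replicate 1 to 0.43 without replicate 2, with 23 to 28 members above 0, and was 0.38 without the 4 libraries. No member passed the adjusted threshold in any of these fits. The differences of Csf2rb and Irf8 from NF stayed between 0.44 and 0.58 and between 0.48 and 0.75 when 1 library was left out.

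**Figure D5:**
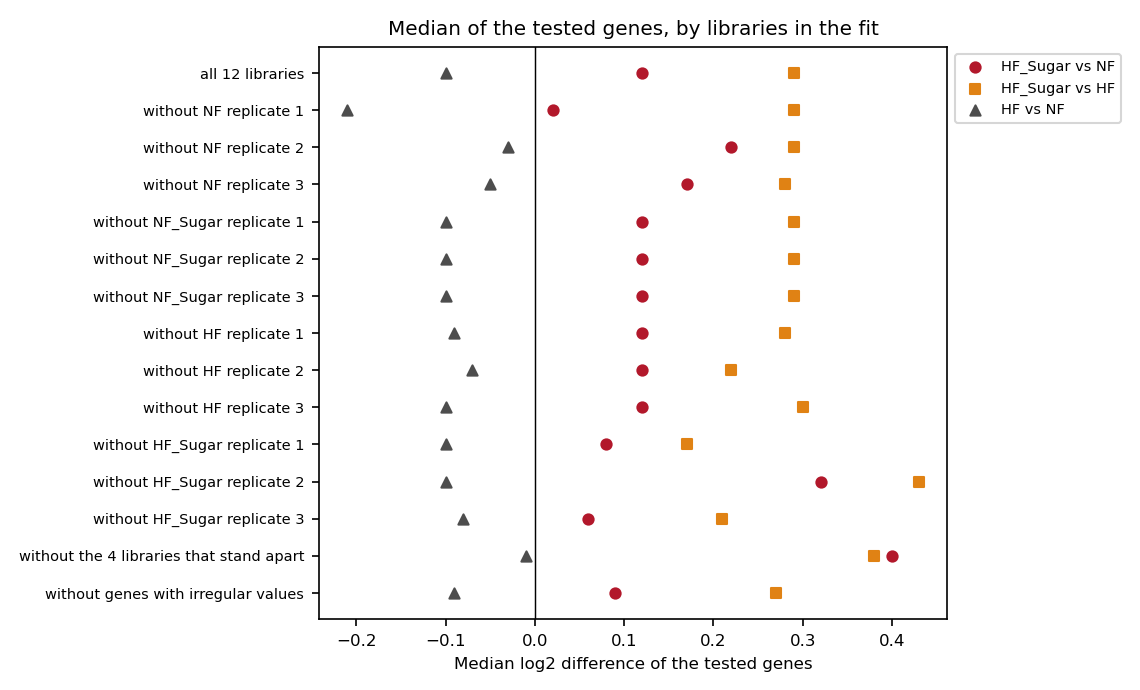
Median log2 difference of the tested members (horizontal axis) for 3 comparisons in fits with all 12 libraries, without each library, without the 4 that stood apart and without genes with fractions of a read in 1 group only (vertical axis). The median of HF_Sugar against NF runs from 0.02 without NF replicate 1 to 0.40 without the 4 libraries, and that of HF_Sugar against HF stays at 0.17 or more.

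Genes outside the list whose levels ran most closely with the mean of the members over the 12 libraries were Lyn (r = 0.945), S1pr4 (0.923), Cd53 (0.915), Gimap7 (0.914), Mtrf1l (0.911), Ly86 (0.906), Igkv8-30 (0.902) and Srgn (0.898). These are Pearson correlations over 12 libraries that share their depth and scaling, given as a description. Lyn, a kinase below Fc and antigen receptors, had group means of 4.58 ± 1.01 (NF), 4.75 ± 0.238 (NF_Sugar), 4.34 ± 0.699 (HF) and 5.69 ± 1.40 RPKM (HF_Sugar; SD, n = 3). Igkv8-30, an immunoglobulin light chain segment, ranged from 4.67 RPKM in NF replicate 1 to 418 RPKM in HF_Sugar replicate 3. In deposited RPKM, these libraries most often held the members' lowest and highest values.

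Genes of the surrounding pathways gave no call in any of the 8 contrasts, and the following counts are for HF_Sugar against NF. Of the growth factors and ligands of member receptors, 4 of 7 tested were above 0 and 3 below (median 0.24). The smallest p-values were those of the growth factor Tgfb1 (0.39 ± 0.17), Xcl1, the ligand of Xcr1 (0.62 ± 0.29), and Flt3l (0.24 ± 0.11, SE). Csf2, which encodes GM-CSF, averaged 0.0480 RPKM and was not tested. Other resident macrophage genes had 9 of 11 above 0 (median 0.14), with Cx3cr1, the fractalkine receptor of gut macrophages, at 0.27 ± 0.14. Monocyte genes had 4 of 6 above 0 (median 0.04), with Ms4a4c at 0.39 ± 0.10 (SE).

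Other conventional dendritic cell genes had 10 of 12 above 0, with a median of 0.28. Ccr7, the chemokine receptor that guides mature dendritic cells and lymphocytes to lymph nodes, gave the smallest p of these lists (0.88 ± 0.17, adjusted p = 0.687 by limma), and Tlr3 (0.60 ± 0.19) and Irf4 (0.49 ± 0.16) followed. Plasmacytoid dendritic cell genes had 3 of 3 above 0 (median 0.46, Spib 0.46 ± 0.19, a factor also of B cells). Signalling genes below Fc receptors had 8 of 10 above 0 (median 0.15), with the inhibitory receptor Fcgr2b at 0.36 ± 0.09. Other oxidase subunits had 2 of 3 (median 0.01) and other complement genes 9 of 9 above 0 (median 0.27), with C1ra at 0.37 ± 0.16. Other lysosome genes had 3 of 9 above 0 (median -0.18), with Ctsd at -0.32 ± 0.15 and Ctsz at -0.32 ± 0.16.

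The summed markers of B and plasma cells and of follicles, and Ptprc, were higher in HF_Sugar replicates 1 and 3 than in replicate 2. The summed RPKM of 9 B and plasma cell markers was 145 to 229 in NF, 160 to 189 in NF_Sugar, 147 to 195 in HF and 167 to 296 in HF_Sugar, where replicates 1 and 3 held 258 and 296 and replicate 2 held 167. The 7 follicle and Peyer's patch markers summed to 14.7 and 17.7 in HF_Sugar replicates 1 and 3 and to 8.73 in replicate 2, against 7.46 to 13.8 in the other groups. Ptprc (CD45), carried by all leukocytes, stood at 1.47, 0.961 and 1.87 RPKM in HF_Sugar and 0.572 to 1.20 RPKM elsewhere, with a log2 difference from NF of 0.39 ± 0.13 (SE, adjusted p = 0.99 by limma). Of the B and plasma cell list 8 of 9 genes and of the follicle list 6 of 6 tested were above 0 in HF_Sugar against NF, with medians of 0.33 and 0.30. None of the genes in these lists averaged below 0.05 RPKM. The part of these cells in the values of Irf8, Csf2rb, Ncf4, Cd83 and the other members was not tested.

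The remaining marker lists gave these counts above 0 in HF_Sugar against NF, again with no call. T cells and intraepithelial lymphocytes had 5 of 11 (median -0.04). Their sums were 12.0 to 44.2 RPKM in NF, and 21.7, 25.7 and 42.1 RPKM in HF_Sugar replicates 1, 2 and 3. Eosinophil and mast cell genes had 4 of 5 (median 0.03) and endothelium 4 of 4 (median 0.24), with Cdh5 at 0.33 ± 0.11. Neutrophil markers were near the limit of detection, with Elane and Cxcr2 below a mean of 0.05 RPKM and 1 testable gene (Mpo, 0.07 ± 0.17) and sums of 0.757 to 2.25 RPKM over all libraries. Fibroblasts had 4 of 5 (median 0.20), red blood cells 4 of 4 (median 0.05), Paneth cells 5 of 5 (median 0.17) and adipocytes 0 of 3 (median -0.77). Smooth muscle had 0 of 5 (median -0.29) and epithelium 0 of 6 (median -0.39). Epithelial sums were 6363 to 8245 RPKM in NF and 4814 to 5968 RPKM in HF_Sugar. They were 4310 to 6470 RPKM in NF_Sugar and 4844 to 10401 RPKM in HF, so both of these groups overlapped NF and HF_Sugar. The sex-linked genes had 2 of 4 above 0 (median -0.02). Their part in the members' values was not tested.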

How the data were processed

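The authors mapped Ion Proton reads of rRNA-depleted mRNA to mm10 with STAR in Partek Flow, quantified Ensembl transcripts and tested genes with DESeq2. Labels and methods differ on RNA input. The deposited values are RPKM, with no counts, and all 12 per-sample files equalled their column of the table. Of 44231 rows, 26 named by bare numbers (at most 0.135% of a library) were left out. Of 3547 genes with 1 transcript, 94.7% had the RPKM step of their annotated length within 1%, which gave depth. Read assignment was estimated, since 1598 genes held values above 0 far below that of 1 read.

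RPKM were scaled by the trimmed mean of M values, and log2(RPKM + 1) was fitted with limma 3.58.1 in R 4.3.3 (trend, one mean per group, 8 residual degrees of freedom), for genes at 0.5 RPKM or more in 3 libraries, with Benjamini-Hochberg adjustment over all 17662 genes and a threshold of 0.05. Folds on this scale understate changes of low genes. The fit was tested on simulated data.

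The members and gene lists were chosen with earlier results of these data known. Every member is named. Values in every library are given for the 3 members of smallest p in each contrast and for cell-defining members, and up to 3 genes of each further list. Deviations from group means of same-numbered libraries correlated by 0.20, 0.51 and 0.22 (HF_Sugar, NF) and 0.49, 0.56 and 0.13 (HF_Sugar, HF). Other pairs gave 0.06 to 0.55 (HF, NF) and -0.44 to 0.26 (pairs with NF_Sugar). The values of 0.51, 0.56 and 0.55 were those of replicate 2, which lay apart in NF, HF and HF_Sugar, so they do not show a pairing by number. No label says what the numbers mark, so the block was an alternative. Other alternatives were 2 scalings, 2 pseudocounts, 2 filters, 1 library left out, the compared groups alone, the 4 libraries apart left out or as a covariate, irregular genes left out, limma-voom on 12993 genes with recovered reads, and the study's thresholds.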

Additional observations from a re-analysis of the deposited data

How the results depend on the processing

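No member was called in any of 25 alternatives and 8 contrasts, and the smallest adjusted p of a member was 0.459 (Csf2rb, HF_Sugar against NF_Sugar, without HF replicate 1). The median of HF_Sugar against NF was 0.32 without HF_Sugar replicate 2 and 0.40 without the 4 libraries that stood apart, beyond the SD of 0.17 between mice, and 0.02 to 0.32 over the libraries left out; the cause was not tested. All other medians stayed within that SD. Genes called in HF_Sugar, HF and NF_Sugar against NF were 4 each with no filter on low values and 0 to 1 with 1 library left out. For the interaction and the sugar effect they were 0 to 1, for HF_Sugar against HF 0 to 2 and for HF_Sugar against NF_Sugar 0 to 1. Of the libraries left out, NF replicate 1 and HF replicate 1 gave 1 call in HF_Sugar and NF_Sugar against NF, HF replicate 1 and NF_Sugar replicate 3 in HF against NF, HF replicate 1 in the interaction and NF replicate 1 in the sugar effect. HF_Sugar against HF had 1 call without NF_Sugar replicate 1, 2 without NF_Sugar replicate 3 and 0 without any other library, and HF_Sugar against NF_Sugar had 1 without HF replicate 1 and 0 without any other. The calls of 1 gene in these last 2 were 0 under most alternatives, among them the other pseudocounts and filters, the compared groups alone, limma-voom, the covariate, the 2-fold threshold, and the fits without irregular genes or the 4 libraries; HF_Sugar against NF_Sugar also had 0 under the other scalings. With the replicate number as a block, 0 genes were called in every contrast. The block, the covariate and the fits of the compared groups alone leave differences between group means unchanged in this balanced design. Their medians were therefore the same by construction and are no check of stability.

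The difference from NF changed sign in 16 members, none of them called. With 1 library left out it ran from -0.15 to 0.30 for Aif1, -0.07 to 0.08 for Batf3, -0.12 to 0.35 for C1qa, -0.02 to 0.33 for C1qb, -0.11 to 0.20 for Cd68, -0.13 to 0.37 for Ctss, -0.20 to 0.17 for Fcer1g, -0.11 to 0.18 for Fcgr1, -0.12 to 0.16 for Fcgr3, -0.05 to 0.29 for Itgam, -0.10 to 0.29 for Laptm5, -0.19 to 0.39 for Lgmn, -0.05 to 0.41 for Lyz2, -0.13 to 0.10 for Ms4a7 and -0.24 to 0.39 for Tyrobp. Otherwise Mrc1 became 0.03 and Fcer1g 0.18 without the 4 libraries, Fcer1g 0.04 without scaling, and Ms4a7 -0.04 and Fcgr3 -0.01 with limma-voom. Members under 1 RPKM, where reads could be recovered, rested on 6 to 117 reads a library, so their values carry the largest counting error.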
